A study of Homo sapiens with 12 samples.

Results

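The genes described here encode the MHC class I pathway, which shows peptides from inside a cell to CD8+ T cells. They were the 9 rows of the deposited table of 16383 genes whose symbol was HLA-B, HLA-C, HLA-E, HLA-F, B2M, TAP1, TAP2, TAPBP or NLRC5, and all 9 symbols were listed. Poly(A) RNA was sequenced from IMR90 cells, an established line of wild-type human lung fibroblasts, in 4 groups of 3 libraries. Proliferating cells received no treatment. The other 3 groups had been made senescent, a state of lasting growth arrest, by 20 Gy of ionizing radiation given over 10 min. The DMSO group received that solvent, and the labels' protocols name treatment days for the inhibitors only. The inhibitor groups received palbociclib at 2 µM (an inhibitor of the kinases CDK4 and CDK6) or ruxolitinib at 2 µM (an inhibitor of the Janus kinases, which relay interferon signals) on days 4, 6, 8 and 10 after irradiation. RNA of all 3 was taken on day 11. The labels do not say whether the libraries of a group came from separate cultures, so p-values measure the spread between these libraries, which may be technical.

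A class I molecule is a heavy chain, such as HLA-B or HLA-C, or the less variable HLA-E and HLA-F, held together with the small invariant chain beta-2-microglobulin, the product of B2M. Proteasomes cut proteins into peptides, the paired transporter TAP1 and TAP2 moves these into the endoplasmic reticulum, and tapasin, from TAPBP, holds the empty class I molecule beside the transporter while it is loaded. NLRC5 is a transcriptional activator of these genes that acts through a shared promoter module, and interferon, through the Janus kinases, is the textbook inducer of the whole set.

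Whole reads could be recovered from the deposited values, and the libraries held 14106799 to 21762412 reads over the listed genes. All 8 fibroblast markers were present, and they dominated the marker counts in every library. Their summed normalized counts were 813770 to 847555 in proliferating, 403689 to 414316 in DMSO, 646634 to 679817 in palbociclib and 510843 to 514800 in ruxolitinib libraries. The 4 epithelial markers, 3 with a mean of at least 10, summed to 332.3 to 443.6, 560.2 to 671.2, 846.6 to 1048 and 619.6 to 667.2 in the same order. The 3 endothelial markers (1 with such a mean) summed to 5.55 to 8.57, 21.3 to 40.5, 21.03 to 33.9 and 27.97 to 50.4. The 4 white blood cell markers (1 with such a mean) summed to 1.11 to 8.30, 28.4 to 40.6, 12.4 to 21.03 and 15.3 to 26.2. These sums moved with the groups, and their part in the results below was not tested. Libraries A126 (proliferating) and A120 (palbociclib) stood apart from their replicates: pairs with 1 of them differed by 11.9 to 25.1 times counting noise (chi-square per degree of freedom), and all other pairs by 1.98 to 6.43 times. A normalized count is a number of reads that the authors scaled by 1 factor for each library. With equal library totals instead, the log2 difference of the median gene would shift by 0.23 for DMSO against proliferating cells, -0.23 for palbociclib against DMSO, -0.20 for palbociclib against ruxolitinib and 0.21 for ruxolitinib against proliferating cells. With equal upper quartiles it would shift by 0.16, -0.03, -0.05 and 0.18, and by 0.13 for palbociclib against proliferating cells.

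Only 3 of the 9 genes had more than trace counts: HLA-B, B2M and NLRC5. The other 6 all lie in the major histocompatibility complex on chromosome 6, and their means over the 12 libraries ran from 0 (HLA-F) to 10.8 normalized counts (TAP2). Most other genes of that region were just as low. Between HLA-F and TAPBP (GRCh38.p14 chr6:29723434-33314078), 115 of 122 protein-coding genes in the table (94.3%) had a mean below 10 and 53 were listed at 0 in every library. The share below 10 was 30.96% in the rest of chromosome 6 (213 of 688 genes) and 26.8% on the other chromosomes (3861 of 14387). Genes that every cell uses were among them, such as RPS18, a protein of the small ribosomal subunit, at a mean of 0.880, and CSNK2B, a subunit of casein kinase 2, at 4.15 (both chosen after their values were seen). HLA-B was the highest gene of the region, with a mean of 1211, followed by AGPAT1 at 196.0 and BRD2 at 57.6.

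**Figure D1:**
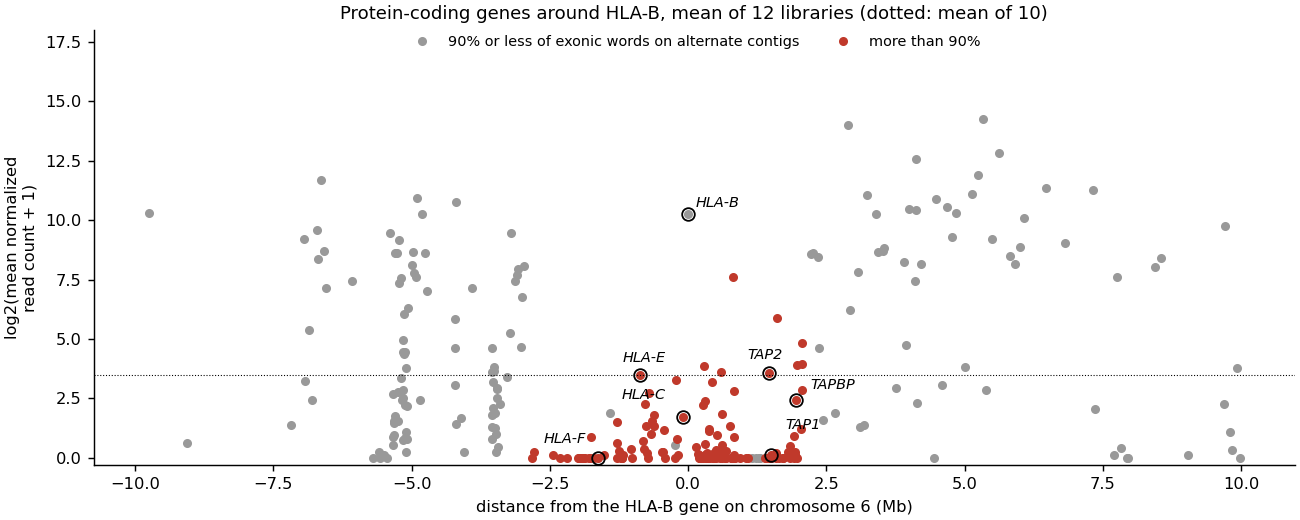
Mean normalized read count over the 12 libraries, as log2(mean + 1), of each protein-coding gene near HLA-B against its distance from HLA-B on chromosome 6. Red points are genes with more than 90% of their 50-base exonic sequences repeated on alternate contigs of hg38, ringed points are genes of the class I pathway, and the dotted line marks a mean of 10. HLA-B stands at 1211, far above its neighbours, of which 94.3% between HLA-F and TAPBP fall below the line.

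The genome release hg38, which the submitters' processing notes name, can include 261 alternate contigs, second versions of variable regions, of which 16 are of chromosome 6. Whether the authors' copy held them, and how reads with several matches were counted, is not given in the sources used here. Every stretch of 50 bases in the exons of each gene was therefore looked up in the whole genome. NLRC5, on chromosome 16, had 0% of its 4384 stretches on an alternate contig. HLA-B had 77.3% of 1161 and HLA-C 93.1% of 1167, while HLA-F had 95.7%, TAP2 99.0%, and HLA-E, TAP1 and TAPBP 100%. B2M, on chromosome 15, had 93.5% of 768, and its other 50 stretches all cover 1 base of its 3′ UTR, chr15:44717814. HLA-B's 264 stretches with a single place in the genome lie in 9 runs, all in coding sequence of exons 2 to 5, of which exons 2 and 3 encode the peptide-binding groove. Outside the region, 288 of 367 genes with more than 90% of their stretches on alternate contigs (78.5%) had a mean below 10, against 3231 of 11769 genes with none (27.5%). Of all 482 genes with more than 90% of their stretches on alternate contigs, region included, 397 had a mean below 10. Among the others, B2M, at 93.5%, had a mean of 2685, and AGPAT1, at 97.3%, a mean of 196.0. The part of alternate contigs in the low values was not tested, so a value at or near 0 here is not read as lack of RNA.

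Sharing among the 4 class I heavy chain genes described here was smaller. Of HLA-B's 1161 stretches of 50 bases, 30 (2.58%) also occurred in HLA-C, 3 in HLA-F and 1 in HLA-E. HLA-C shared 26 of its stretches with HLA-E and 12 with HLA-F, and HLA-E shared 22 with HLA-F. With HLA-G, which is outside these 4, HLA-E shared 67 (3.08%), HLA-C 2, HLA-F 2 and HLA-B 0. The longest coding stretch common to HLA-B and HLA-C is shown because reads that fall within it cannot be assigned to either gene. It has 66 bases, lies in exon 3 of both, and is read on the minus strand at chr6:31356301-31356366 (HLA-B) and chr6:31271207-31271272 (HLA-C), in hg38.
HLA-B and HLA-C exon 3: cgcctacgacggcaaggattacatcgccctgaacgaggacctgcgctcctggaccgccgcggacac
The HLA genes are also among the most variable of the human genome, and the reads of a cell line can differ from the reference at many bases. The counts of HLA-B below are therefore uncertain in level. Reads from other class I genes could be part of them, which was not tested. The level of B2M is uncertain too, because 93.5% of its stretches also occur on alternate contigs. The effect of this on its counts was not tested.

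HLA-B (Entrez gene 3106, chr6:31353875-31357179 in GRCh38.p14) was highest in DMSO-treated senescent cells and lowest with ruxolitinib. Its normalized counts were 1193, 1472 and 1310 in proliferating libraries, 1826, 1582 and 1517 with DMSO, 899.7, 1292 and 937.1 with palbociclib, and 1037, 718.5 and 751.6 with ruxolitinib. Every DMSO library was above every library of the other 3 groups. The palbociclib range overlapped the proliferating range through library A120 alone, and the other 2 palbociclib libraries lay within the ruxolitinib range, while every ruxolitinib library was below every proliferating one. Group means ± SD (n = 3) were 1325 ± 140 in proliferating, 1642 ± 163 in DMSO, 1043 ± 216 in palbociclib and 835.7 ± 175 in ruxolitinib libraries.

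B2M (567, chr15:44711517-44718145), whose product every class I heavy chain needs to reach the cell surface, had the same order at its extremes. It stood at 2490, 2520 and 2449 in proliferating cells, 4219, 3364 and 3394 with DMSO, 2438, 2950 and 2405 with palbociclib, and 1984, 1989 and 2019 with ruxolitinib. DMSO libraries were again above all others, and ruxolitinib libraries below all others. Palbociclib libraries lay on both sides of the proliferating ones, with 1 of 3 above and 2 below. Means were 2486 ± 35.4, 3659 ± 485, 2598 ± 306 and 1997 ± 18.5 in the same order of groups.

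NLRC5 (84166, chr16:56989557-57083520) separated into 2 levels. It stood at 469.0, 464.7 and 491.4 in proliferating cells and at 538.5, 513.8 and 497.2 with DMSO. With palbociclib it stood at 275.6, 257.2 and 296.7, and with ruxolitinib at 276.2, 282.7 and 270.7. All 6 libraries treated with an inhibitor were below all 6 others, and the ruxolitinib libraries lay within the palbociclib range. Means were 475.0 ± 14.3, 516.5 ± 20.8, 276.5 ± 19.7 and 276.6 ± 6.02.

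**Figure D2:**
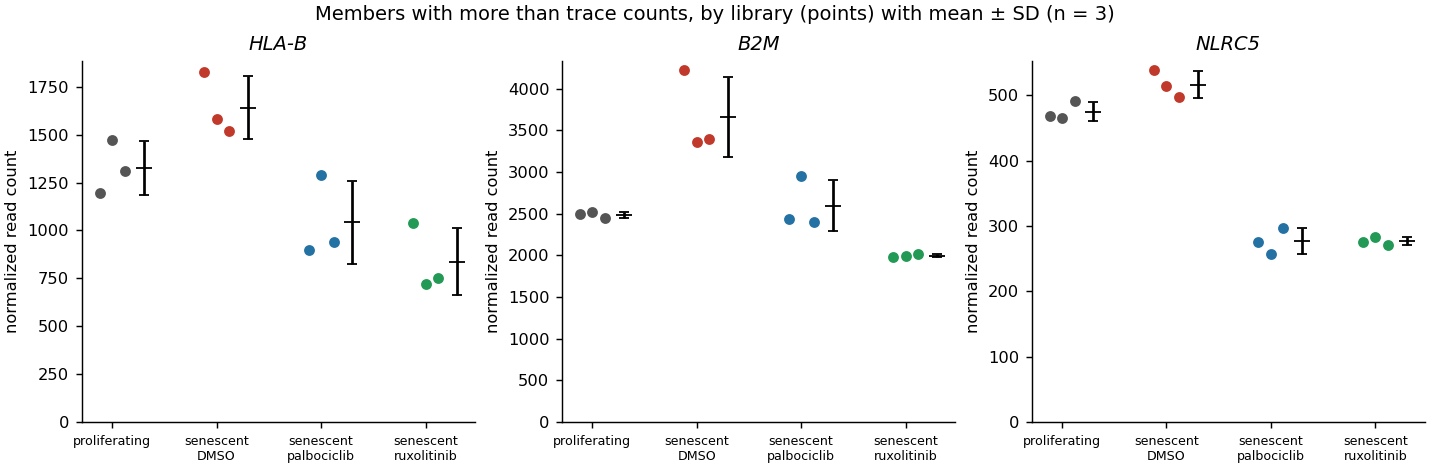
Normalized read counts of HLA-B, B2M and NLRC5 in each library (points), by group, with the mean ± SD of 3 libraries beside them on axes that start at 0. DMSO libraries are the highest for each gene, and NLRC5 is close to 277 with either inhibitor (means 276.5 and 276.6).

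The promoters of HLA-B and B2M are shown because both genes fell with each inhibitor against DMSO (below), although they lie on different chromosomes. The 250 bases before the start of transcription are from RefSeq (GRCh38.p14), 5′ to 3′ on the gene's own strand. Capitals mark matches, on either strand, to AANNGAAA, a spacing found in interferon response elements, to TGACG, the core of the element in the class I promoter module that CREB-family factors bind, and to CCAAT, the box that NF-Y binds.
HLA-B promoter, chr6:31357180-31357429, minus strand: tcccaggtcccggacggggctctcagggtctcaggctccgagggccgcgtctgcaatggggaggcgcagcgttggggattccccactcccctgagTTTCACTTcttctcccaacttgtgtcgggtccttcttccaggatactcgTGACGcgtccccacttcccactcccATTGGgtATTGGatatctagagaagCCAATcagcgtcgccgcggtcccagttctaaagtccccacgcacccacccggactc
B2M promoter, chr15:44711267-44711516, plus strand: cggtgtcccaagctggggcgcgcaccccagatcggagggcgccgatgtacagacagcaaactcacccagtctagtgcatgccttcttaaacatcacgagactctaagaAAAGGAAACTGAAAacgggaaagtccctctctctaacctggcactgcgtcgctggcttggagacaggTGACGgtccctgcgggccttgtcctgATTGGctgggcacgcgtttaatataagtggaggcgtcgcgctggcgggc
HLA-B held 1 match to AANNGAAA, 1 to TGACG and 3 to CCAAT, and B2M held 2, which overlap, 1 and 1. Among all 34788 promoter windows of this length, 20.3% held AANNGAAA, 21.2% TGACG, 32.0% CCAAT and 1.19% all 3. Promoter entries matched 7 of the 9 genes, with 8 windows, and no entry matched HLA-E or NLRC5. HLA-C also held all 3 (1, 1 and 4 matches). TAP2 held AANNGAAA and TGACG, HLA-F and 1 of 2 starts of TAP1 held AANNGAAA and CCAAT, TAPBP held AANNGAAA alone, and the other start of TAP1 held none. A match is a string of letters and not a measured binding site.

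Senescent DMSO cells were compared with proliferating cells to see which genes differ after irradiation. B2M rose, and HLA-B and NLRC5 were higher by amounts that missed the threshold. Differences are of log2(normalized count + 1), from a limma fit of 12 libraries and 11242 genes with a mean of at least 10, and called genes are those with an adjusted p under 0.05. Of the 9 genes, 5 passed that minimum (HLA-E and TAP2 barely, at means of 10.3 and 10.8) and 1 of these was called higher and none lower, where 33.0% and 39.3% of all genes tested were. B2M was 0.55 higher (SE 0.084, adjusted p 2.63e-05, 1.47 times the proliferating mean). HLA-B differed by 0.31 (95% interval 0.01 to 0.61, adjusted p 0.0626) and NLRC5 by 0.12 (-0.04 to 0.28, adjusted p 0.152). For all 3 genes every DMSO library was above every proliferating library. The share of all genes tested whose groups lay apart was not counted, here or in any other comparison. Such separation is therefore a description and adds nothing to the calls. The calls for HLA-B and NLRC5 depended on the scaling: both were called higher with equal totals (0.54 and 0.35), equal upper quartiles (0.47 and 0.28) and quantile normalization (0.47 and 0.27). Bulk RNA cannot separate a change in RNA per cell from a change in which cells are present.

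Palbociclib was compared with DMSO to see what CDK4/6 inhibition changes in senescent cells. All 3 genes with more than trace counts fell, NLRC5 by the most of the 3. Of the 5 genes tested 3 were called lower and none higher, where 22.3% and 26.0% of all genes tested were. NLRC5 fell by 0.90 (SE 0.073, adjusted p 1.15e-07), to 0.535 of the DMSO mean. HLA-B fell by 0.67 (SE 0.14, adjusted p 0.00129), to 0.635 of it. B2M fell by 0.49 (SE 0.084, adjusted p 2.17e-04), to 0.710. The groups did not overlap for any of the 3. These calls held without A120, where the differences were -0.85 for NLRC5, -0.83 for HLA-B and -0.59 for B2M.

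HLA-B, NLRC5 and B2M also fell with ruxolitinib, to between 0.509 and 0.546 of their DMSO means. Janus kinase inhibition was compared with DMSO in the same way, and the DMSO libraries are shared with the palbociclib comparison. Of the 5 genes tested 3 were called lower and none higher, where 3.42% and 1.10% of all genes tested were. HLA-B fell by 0.99 (SE 0.14, adjusted p 4.59e-04), to 0.509 of the DMSO mean. NLRC5 fell by 0.90 (SE 0.073, adjusted p 5.87e-07), to 0.535. B2M fell by 0.86 (SE 0.084, adjusted p 5.51e-06), to 0.546. No ruxolitinib library overlapped a DMSO library for any of the 3.

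The inhibitors were then compared directly, at the same dose and days. Of the 5 genes tested 1 was called higher with palbociclib than with ruxolitinib and none lower, where 22.8% and 17.6% of all genes tested were. That gene was B2M, higher by 0.37 (SE 0.084, 95% interval 0.19 to 0.55, adjusted p 0.00255), with every palbociclib library above every ruxolitinib library. The B2M call was lost with equal totals (0.17, adjusted p 0.124) and after quantile normalization (0.23, adjusted p 0.0680). HLA-B was 0.32 higher (0.02 to 0.62, adjusted p 0.0868) with overlapping ranges. With a library left out that difference ran from 0.16 (without A120) to 0.48 (without A122), and it was called without A119 (adjusted p 0.0322) or A122 (adjusted p 0.0135). For NLRC5 the difference was -0.00 with an interval of -0.16 to 0.15 (adjusted p 0.983), and with equal totals it was -0.20 and called lower with palbociclib (adjusted p 0.0338).

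Against proliferating cells, both inhibitor groups were lower in NLRC5 and HLA-B. Of the 5 genes tested 3 were called lower and none higher with palbociclib, where 38.6% and 35.2% of all genes tested were. The counts with ruxolitinib were also 3 and 0, where 39.5% and 32.6% of all genes tested were, and against such large shares the counts say little about these genes. NLRC5 was lower by 0.78 with palbociclib (adjusted p 9.81e-08) and with ruxolitinib (adjusted p 1.13e-07), to 0.582 of the proliferating mean in both. HLA-B fell by 0.68 with ruxolitinib (SE 0.14, adjusted p 5.07e-04). With palbociclib it fell by 0.36 (adjusted p 0.0330), with overlapping groups, and this call was lost without A126 (adjusted p 0.105) and in 8 other alternatives. B2M fell by 0.32 with ruxolitinib (adjusted p 0.00337), a call lost under each of the 3 other scalings (-0.11 to -0.14), and with palbociclib it differed by 0.06 (-0.12 to 0.24, adjusted p 0.555). The third gene called with palbociclib was TAP2, whose values are traces.

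**Figure D3:**
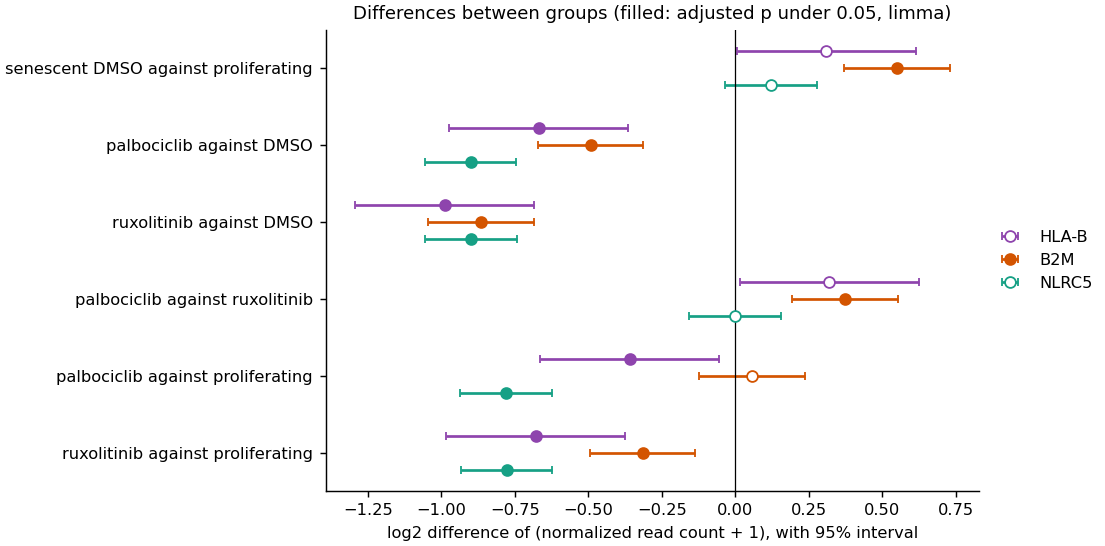
Log2 differences of (normalized read count + 1) in 6 comparisons, with 95% intervals, for HLA-B, B2M and NLRC5. HLA-E and TAP2, which were also tested, are not drawn. Filled points passed an adjusted p under 0.05 in limma. HLA-B, B2M and NLRC5 lie below 0 with filled points in both comparisons of an inhibitor with DMSO, where NLRC5 is at -0.90 in each.

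The heavy chains other than HLA-B gave only trace values. HLA-C (3107, chr6:31268749-31272092), a classical heavy chain, stood at 7.26, 1.11 and 0.952 in proliferating cells, 0.990, 0 and 2.31 with DMSO, 1.11, 8.76 and 1.78 with palbociclib, and 0.772, 0 and 1.80 with ruxolitinib. HLA-E (3133, chr6:30489509-30494194), which presents leader peptides of other class I chains to natural killer cells, stood at 5.19, 23.3 and 1.90, then 9.90, 5.92 and 10.4, then 8.85, 7.66 and 15.99, then 8.49, 8.10 and 18.05. The groups overlapped for both genes, and the highest value of HLA-C lay in A120 and that of HLA-E in A126, the libraries that stand apart. HLA-F (3134, chr6:29723434-29738532) was listed at 0 in all 12 libraries.

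The peptide transporter and tapasin were at the same low level. TAP1 (6890, chr6:32845209-32853704) was listed at 0 in 11 libraries and had 1 read in A120. TAP2 (6891, chr6:32821831-32838739) stood at 8.30, 26.6 and 11.4 in proliferating cells, 17.8, 7.10 and 10.4 with DMSO, 3.32, 4.38 and 8.88 with palbociclib, and 13.1, 5.40 and 12.6 with ruxolitinib. TAPBP (6892, chr6:33299694-33314078) stood at 6.23, 3.33 and 1.90, then 3.96, 5.92 and 5.78, then 0, 5.47 and 6.22, then 6.94, 1.80 and 5.41. Groups overlapped in each, apart from TAP1, which has no range to compare. TAP2 was lower with palbociclib than in proliferating cells by 1.27 (SE 0.51, adjusted p 0.0338), on 3 to 24 reads per library. The call was lost without A119 or A120, at the same upper quartile and with only the 2 groups fitted. Without A126, which holds its highest value (26.6) and stands apart, TAP2 fell below the minimum mean and was not tested.

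**Figure D4:**
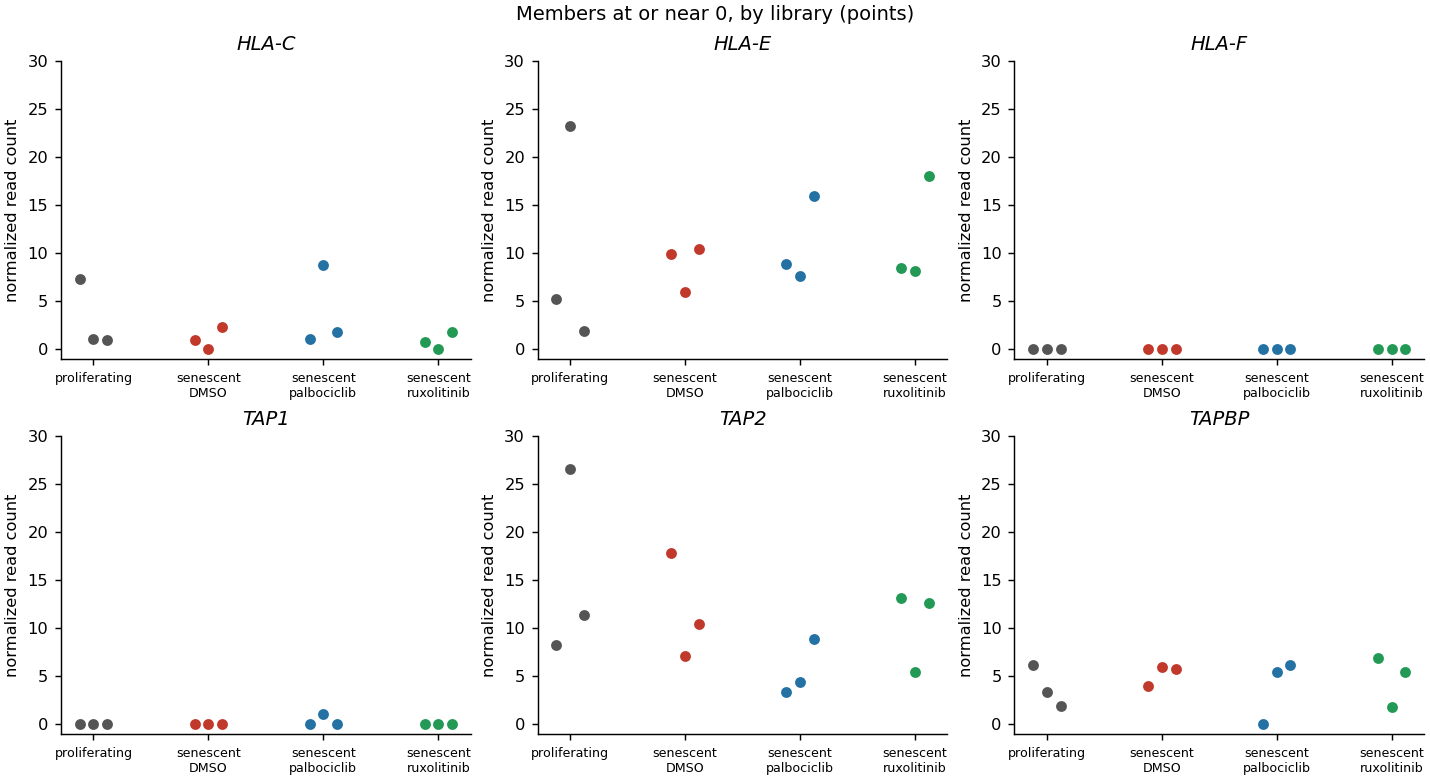
Normalized read counts of HLA-C, HLA-E, HLA-F, TAP1, TAP2 and TAPBP in each library (points), by group, on 1 scale. All values are at or below 26.6, the ranges of the groups overlap, and HLA-F and all but 1 library of TAP1 are at 0.

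Genes of the pathway that lie elsewhere in the genome could be followed. From here on, a change with DMSO is that of senescent DMSO cells against proliferating cells, which differ in irradiation as well as solvent. A change with an inhibitor is against senescent DMSO cells, unless another comparison is named. Among 6 other loading and trimming genes, 2 rose and 3 fell with DMSO against proliferating cells, where 33.0% and 39.3% of all genes tested did. With palbociclib against DMSO 1 rose and 3 fell, where 26.0% and 22.3% did. With ruxolitinib against DMSO 0 rose and 2 fell, where 1.10% and 3.42% did. The counts with DMSO are near the shares over all genes and say little about these 6. Their median differences were -0.12, -0.22 and -0.22, beside -0.05, 0.02 and -0.00 over all genes tested. ERAP2, an aminopeptidase that trims peptides in the endoplasmic reticulum, was 606.3 ± 27.8 in proliferating, 765.5 ± 12.6 in DMSO, 417.2 ± 21.0 in palbociclib and 487.9 ± 14.04 in ruxolitinib libraries (SD, n = 3). It rose by 0.34 with DMSO and fell by 0.88 with palbociclib and by 0.65 with ruxolitinib (adjusted p 2.09e-04, 3.61e-08 and 6.28e-06). Its relative ERAP1 fell by 0.51 with palbociclib and by 0.44 with ruxolitinib (adjusted p 4.55e-04 and 0.0138), while its difference of -0.28 with DMSO (adjusted p 0.0170) was not called under any of the 3 other scalings. TAPBPL, a tapasin-like peptide editor, rose by 0.79 with DMSO (adjusted p 6.09e-04) and fell by 0.57 with palbociclib (adjusted p 0.0120), a call lost after quantile normalization. CALR, a chaperone of the loading complex, and PDIA3, its disulfide isomerase, fell by 0.62 and 0.58 with DMSO (adjusted p 3.87e-08 and 7.93e-08). With palbociclib PDIA3 rose by 0.16 (adjusted p 0.0248), a call lost under all 3 other scalings, with its sign turned at 2 of them (-0.07 with equal totals and -0.13 after quantile normalization). CALR did not pass the test with palbociclib (0.07, adjusted p 0.327) but was called lower with equal totals (-0.16) and after quantile normalization (-0.30).

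The immunoproteasome replaces the standard catalytic subunits of the proteasome under interferon, and its activator PA28 is made by PSME1 and PSME2. PSMB8 and PSMB9, which neighbour TAP1 and TAP2 on chromosome 6, were listed at 0 in every library. Of the 3 other genes 1 rose with DMSO against proliferating cells. Against DMSO, 2 fell with palbociclib and 2 fell with ruxolitinib. The list's medians in these 3 comparisons were 0.35, -0.55 and -0.55. Over all genes tested 33.0% rose with DMSO, 22.3% fell with palbociclib and 3.42% fell with ruxolitinib. The count with DMSO is near that share and says little about these 3. PSME2 was 1156 ± 94.4, 1610 ± 43.1, 979.1 ± 126 and 1050 ± 15.3 in the order of groups used above. It rose by 0.48 with DMSO and fell by 0.72 and 0.62 with the inhibitors (adjusted p 6.80e-05, 3.73e-06 and 1.76e-04). PSME1 fell by 0.55 with each inhibitor (adjusted p 2.24e-05 and 2.01e-04) and did not pass the test with DMSO (0.08, adjusted p 0.353). Under each of the 3 other scalings all 3 genes were called higher with DMSO, PSME1 by 0.24 to 0.31 and PSMB10, a catalytic subunit, by 0.43 to 0.58 (0.35 with the authors' scaling, adjusted p 0.0621). Of the standard subunits PSMB5, PSMB6 and PSMB7, 0 of 3 were called with ruxolitinib (median 0.11), and 0 under each other scaling. With ruxolitinib only 1.10% of all genes tested rose and 3.42% fell, so 0 of 3 says little. With DMSO 1 rose and 2 fell (median -0.21), beside 33.0% and 39.3% of all genes tested. The falls of PSMB6 and PSMB7 were not called under any of the 3 other scalings, and PSMB7 turned sign with equal totals (0.022). With palbociclib PSMB5 rose by 0.28 (list median 0.11), where 26.0% of all genes tested rose. This call was lost with equal totals and after quantile normalization.

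Among 21 genes of interferon signalling and of the factors that bind class I promoters, 8 rose and 9 fell with DMSO against proliferating cells (median -0.11), where 33.0% and 39.3% of all genes tested did, and beside such shares these counts say little about the list. With palbociclib against DMSO 2 rose and 9 fell (median -0.20), where 26.0% and 22.3% did, and with equal totals 1 rose and 15 fell. With ruxolitinib 1 rose and 4 fell (median -0.05), where 1.10% and 3.42% did. IRF9, the DNA-binding subunit of the type I interferon complex ISGF3, was 355.3 ± 33.4 in proliferating, 1549 ± 28.1 in DMSO, 515.2 ± 71.5 in palbociclib and 301.9 ± 0.605 in ruxolitinib libraries. Its differences were the largest of the list in these 3 comparisons, at 2.13 with DMSO, -1.60 with palbociclib and -2.36 with ruxolitinib (adjusted p 1.23e-11, 2.51e-09 and 1.15e-10). STAT2, its partner in that complex, differed by 1.47, -0.50 and -0.66. IRF1, which binds interferon response elements of class I promoters, rose by 0.37 with DMSO and fell by 0.96 and 0.61 with the inhibitors. IRF9 was thus higher with palbociclib than with ruxolitinib (by 0.76, adjusted p 1.12e-05), and IRF1 was lower (-0.35, adjusted p 0.00792), while NLRC5 stood at 276.5 and 276.6. Of the other listed factors that bind class I promoters, RFX5 and RELA were called higher with DMSO (0.37 and 0.13), and most fell. NFYB, RFXAP, CREB1 and NFKB1 differed by -1.09, -0.95, -0.87 and -0.57. RFXANK, NFYC, NFYA and IRF2 differed by -0.56, -0.52, -0.45 and -0.44. All of these falls were called, and that of IRF2 was lost with equal totals. All 8 reference genes of the interferon response (ISG15, MX1, IFIT1, IFIT3, OAS1, OAS2, IFI44L and RSAD2) rose with DMSO and fell with each inhibitor. Their medians were 6.80, -4.21 and -5.16, beside 0.31, -0.67 and -0.86 for the 5 class I pathway genes tested. Against proliferating cells 7 of the 8 were called higher with palbociclib and 6 with ruxolitinib, and 0 lower. There 35.2% and 32.6% of all genes tested were called higher.

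Class I-like genes outside the low region were also higher in senescent cells, but 2 of 3 rose again with palbociclib. Over all genes tested 33.0% rose with DMSO and 26.0% with palbociclib. MR1, HFE and FCGRT, whose products also pair with beta-2-microglobulin, all rose with DMSO against proliferating cells, by 1.48, 0.51 and 0.90 (adjusted p 7.73e-09, 4.21e-04 and 2.41e-08). HFE, which regulates iron uptake, rose further with palbociclib, by 0.67 (adjusted p 1.00e-04). FCGRT, the neonatal Fc receptor, rose by 0.41 (adjusted p 3.22e-04), a call lost at the same total. MR1, which presents vitamin metabolites to T cells, differed by -0.15 with palbociclib (adjusted p 0.277), called lower with equal totals (-0.38, adjusted p 0.00924), and by -0.27 with ruxolitinib (adjusted p 0.231), where its libraries did not overlap those with DMSO. None of the 3 was called with ruxolitinib, with the authors' scaling or the 3 others. Of the other class I-like genes listed, HLA-G, MICB and CD1D were below a mean of 10, and MICA was not analysed here. Of 12 genes of the class II pathway, which shows peptides to CD4+ T cells, only CD74, the invariant chain, had a mean of at least 10. The HLA genes among them lie in the low region of chromosome 6, so their values are not read as lack of RNA. CD74 fell by 1.47 with palbociclib against DMSO (adjusted p 0.00279) on means of 20.1 and 6.55, a call lost after quantile normalization (-0.84, adjusted p 0.0653).

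**Figure D5:**
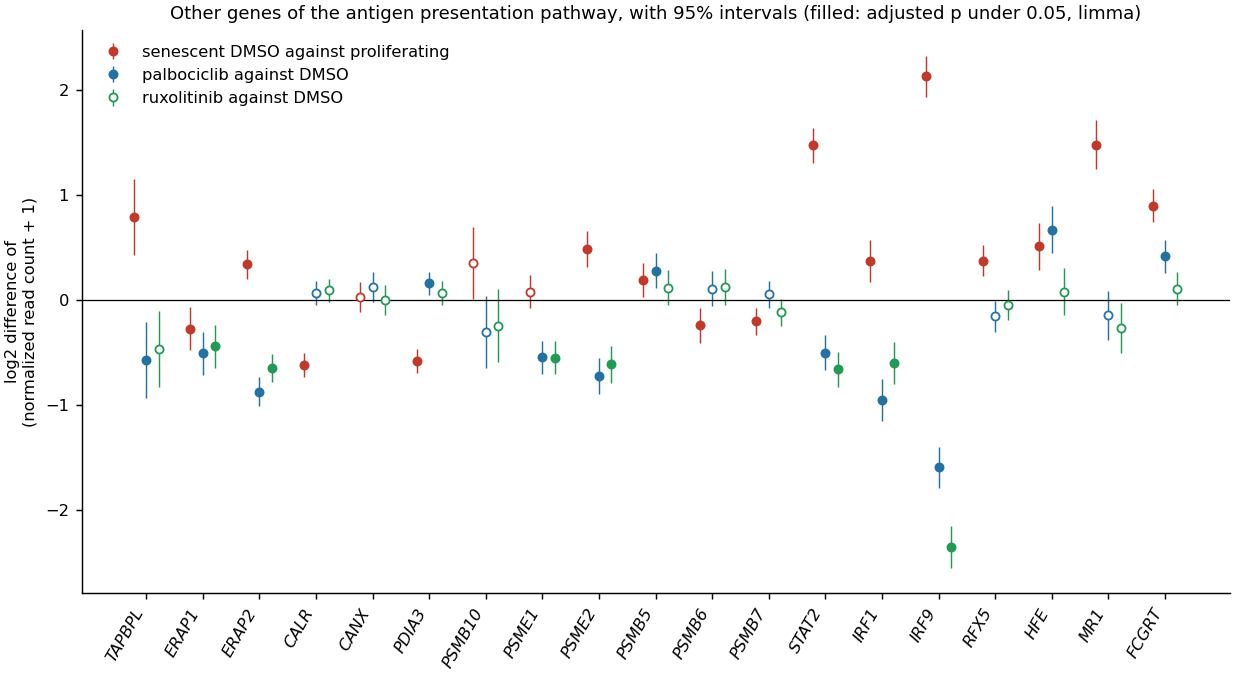
Log2 differences of (normalized read count + 1), with 95% intervals, for other genes of the pathway in 3 comparisons; filled points passed an adjusted p under 0.05 in limma. Blue (palbociclib) and green (ruxolitinib) points of ERAP1, ERAP2, PSME1, PSME2, STAT2, IRF1 and IRF9 are filled and below 0. Those of HFE and FCGRT are above 0, filled for palbociclib and open (not called) for ruxolitinib. RFX5 is drawn, and the factors binding class I promoters that fell with DMSO against proliferating cells, such as NFYB, are not.

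The genes whose log2 values followed HLA-B most closely over the 12 libraries were PLEKHA4, SLC15A3 and CNP, with Pearson r of 0.92, 0.90 and 0.90. For NLRC5 they were CASP4, IFI16 and NFE2L2, with r of 0.98, 0.98 and 0.95. B2M was most like PARP9, PHF11 and IFITM1 (r of 0.95, 0.95 and 0.94), a choice of gene added after its values were seen. Among themselves HLA-B and B2M had an r of 0.86, HLA-B and NLRC5 0.81, and B2M and NLRC5 0.66. These values describe 12 libraries in 4 groups that share their differences, and carry no test. TAP1 was too low for such a list.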

How the data were processed

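Poly(A) RNA of IMR90 cells was sequenced in 12 libraries. The authors deposited 1 table of normalized counts, a signal never below 0, with 1 row per Entrez gene up to number 140467. Per the submitters' processing notes, Trimmomatic 0.38.1, HISAT2 2.2.1, featureCounts 2.0.3, FastQC 0.74, MultiQC, DESeq2 2.11.40.8 and the build hg38 were used. The annotation, the set of contigs and the handling of reads with several matches are not given in the sources used here. In each library 100% of values above 0 were whole multiples of what 1 read was worth (tolerance 0.01), so reads were recovered. Replicate pairs all differed by more than counting noise. Columns carried group and library numbers (A116 to A127) but no replicate number.

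Values were tested as log2(value + 1) with limma 3.58.1 in R 4.3.3 (4 group means over 12 libraries, variances following the mean level, Benjamini-Hochberg adjustment over the 11242 genes whose mean was 10 or more), in 6 comparisons. On the recovered reads, edgeR 4.0.16 (quasi-likelihood, TMM) and DESeq2 1.42.0 were run as alternatives. Other pseudocounts, filters and scalings, no variance trend, fits of only 2 groups and leaving out each library were also tried. On data simulated for DMSO against proliferating cells the limma test recovered 73.1% of genes changed 1.5-fold, 89.6% of those changed 2-fold and 100% of those changed 4-fold, over 11229 genes. It made 12 false calls. The simulation gave all genes and libraries 1 fixed spread, with no library that stands apart as A126 and A120 do. These rates therefore may not hold for the real libraries.

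All 50-base stretches of the exons of the Ensembl canonical transcripts (GENCODE) were looked up on both strands of hg38 with its alternate contigs. Gene coordinates and promoters are those of RefSeq GRCh38.p14. The 9 genes are all named. From the other lists, genes are named by the largest called change first, with others added for their role, and for HLA-B and NLRC5 the 3 genes most alike are named. The rule also held TAP1, which was too low to be tested, and B2M was added after its values were seen. Results of a few genes are not reported here. The genes and lists were chosen with earlier results of these data known.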

Additional observations from a re-analysis of the deposited data

Results flagged for a closer look

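B2M differed between the inhibitor groups when these were compared directly. The difference between palbociclib and ruxolitinib was 0.3725 on the log2(value + 1) scale (adjusted p 0.00255 in limma), with 3 of 3 palbociclib libraries above 3 of 3 ruxolitinib libraries. It was lost at the same total and after quantile normalization.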

How the results depend on the processing

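The number of the 9 genes called was 3, all lower, for palbociclib and for ruxolitinib against DMSO in each of 23 alternatives. For ruxolitinib against proliferating cells it was 3, with 2 to 3 in the 23 alternatives and 3 whenever a library was left out. It varied more in the other comparisons. For DMSO against proliferating cells it was 1, and became 3 at the same total, at the same upper quartile, after quantile normalization and with edgeR, 2 with only the 2 groups fitted and 2 with DESeq2, and 1 to 2 when each library was left out in turn (2 without A126, A119, A120 or A122). For palbociclib against ruxolitinib it was 1, then 0 after quantile normalization and 1 to 2 with a library left out (2 without A119 or A122). For palbociclib against proliferating cells it was 3, then 1 at the same upper quartile and 1 to 3 with a library left out (1 without A126 or A119). Genes called for ruxolitinib against DMSO numbered 508, then 1831 with only the 2 groups fitted and 261 to 726 with a library left out, so the background share of 3.42% rests on that fit. Higher genes were 53.9% of calls for palbociclib against DMSO and 15.4% at the same total; 56.4% and 15.7% for palbociclib against ruxolitinib; 45.7% and 64.04% for DMSO against proliferating; 45.2% and 61.7% for ruxolitinib against proliferating.

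Among the 9 genes signs turned only for differences that were not called with the authors' scaling. HLA-E for DMSO against proliferating cells (0.33) became -0.67 after quantile normalization, -0.078 with edgeR and -0.12 with DESeq2, and ran from -0.37 (without A127) to 0.56 with a library left out. HLA-E for palbociclib against ruxolitinib became 0.52 after quantile normalization and ran from -0.25 to 0.13 (above 0 without A119 or A120). HLA-E ran from -0.12 (without A127) to 0.77 for palbociclib and from -0.055 (without A127) to 0.83 for ruxolitinib against proliferating cells, the latter also -0.27 after quantile normalization. NLRC5 for palbociclib against ruxolitinib became 0.055 after quantile normalization and ran from -0.054 to 0.048 (above 0 without A120 or A123). TAP2 for ruxolitinib against DMSO ran from -0.45 to 0.21 (above 0 without A116 or A123), and B2M for palbociclib against proliferating cells from -0.038 (without A120) to 0.11. The cause of these changes was not tested. No paired analysis was possible because the columns carry no replicate numbers. Precision is limited by 3 libraries a group and, for the genes near 0, by 0 to 24 reads per library.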
